A study of Mus musculus with 36 samples.

Results

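Stromal progenitors induced from mouse embryonic stem cells (iSP) were set against stromal progenitors sorted from E12.5 mouse kidneys (ex-fetu E12.5 SP) by RNA sequencing, to ask how far the induced cells departed from fetal cells of the same sorted phenotype. The comparison took 8 of the 36 libraries of the study, iSP replicates 1 to 4 and E12.5 SP replicates 1 to 4. It tested 13903 of the 22761 listed genes, those whose normalised value reached 1 or more in 4 or more of these libraries. The iSP were E14 mESCs grown as embryoid bodies and exposed in turn to Activin A, the GSK3 inhibitor CHIR99021, the ROCK inhibitor Y27632, BMP4, retinoic acid and FGF9, and each library pooled the bodies of a single differentiation. The E12.5 SP came from kidneys, freed of the ureter, of CD1 embryos, for which the labels name no treatment, and each library pooled the embryos of a single pregnant mouse. Cells carrying CD31 or EpCAM/RET were gated out, and both cell types were then taken as low for ITGA8 and high for PDGFRA. Strain, culture, age and origin all changed with the group, so none of them can be told apart in the differences given here.

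In the fetal kidney, stromal progenitors surround the caps of nephron progenitors and carry the forkhead factor FOXD1. They give rise to interstitial fibroblasts, pericytes and mesangial cells, and they signal to the neighbouring nephron progenitors and ureteric bud. Stromal cells nearer the ureter form medullary stroma and the smooth muscle of the ureter. Kidney mesenchyme and the mesenchyme of the limb and trunk wall come from different parts of the mesoderm, head mesenchyme comes in part from the neural crest, and these carry different sets of homeobox genes.

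The iSP libraries held 20.98 to 29.4 M reads on genes and the E12.5 SP libraries 18.6 to 52.5 M, as recovered from the deposited values, which were CPM divided by a normalisation factor of each library and are named normalised CPM throughout. A level of 3 reads, taken as the limit of detection, was at most 0.145 normalised CPM in iSP and 0.163 in E12.5 SP. E12.5 SP replicate 1 stood apart from its group. Across genes, its log2 values correlated at 0.958 to 0.967 with the other E12.5 SP libraries, and it had the fewest reads of the 8 libraries. It was the highest of the 4 E12.5 SP libraries in 37 of 37 immediate early and dissociation genes tested, against 32.7% of all genes tested. The counts of called genes below are therefore given with and without it. Mitochondrially encoded genes took 0.963 to 1.19% of the reads in iSP and 1.05 to 1.33% in E12.5 SP. Pseudogenes took 0.685% ± 0.0583 (SD, n = 4) in iSP and 0.465% ± 0.0751 in E12.5 SP, which did not overlap (exact two-sided permutation test, p = 0.0286, the smallest the design allows, adjusted over 3 such values 0.0429). With 3 E12.5 SP libraries the smallest p is 0.0571.

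The genes behind the gate were used to choose the cells and are a description only. The RNA of *Pdgfra*, the receptor used as the stromal gate, stood at 363, 425, 434 and 417 normalised CPM in iSP replicates 1 to 4 and at 204, 612, 551 and 622 in E12.5 SP replicates 1 to 4, so the low value was that of E12.5 SP replicate 1. *Itga8*, the integrin chain that is high in nephron progenitors, lay at 56.1 to 60.2 in iSP and 14.0 to 20.2 in E12.5 SP. *Ret* lay at 0.193 to 1.07 against 3.49 to 5.31, *Epcam* at 8.11 to 9.81 against 3.92 to 8.14 and *Pecam1*, which encodes CD31, at 3.55 to 5.56 against 1.19 to 3.95.

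Of the 13903 genes tested, 8631 (62.1%) passed an adjusted p of 0.05 (limma, Benjamini-Hochberg), 4627 (33.3%) higher in iSP and 4004 (28.8%) lower. Each list count below is to be read beside these last 2 shares. Over all genes tested the log2 fold change had a median size of 0.50 and a signed median of 0.04. Among the genes called, 2942 had a log2 fold change over 1 in size, 201 over 3 and 36 over 5. Libraries of the 2 groups did not overlap in 8065 genes (58.0%), with iSP above in 31.7% and below in 26.3%. The quasi-likelihood test of edgeR on the recovered reads called 62.5%, 31.3% in each direction, and limma treat, which asks for a log2 fold change above 1 in size, called 8.85%, 4.14% higher and 4.71% lower. The difference between groups held 81.2% of the variance over the tested genes and 90.4% without E12.5 SP replicate 1. Leaving that library out gave 9816 called genes (70.6%), 5066 higher (36.4%) and 4750 lower (34.2%). Of the genes called with all 8 libraries, 4575 stayed higher and 3964 stayed lower, 92 were no longer called and none was called the other way. A gene below 1 normalised CPM in every library of a group passed the filter on low values through the other group alone, so its direction was set before any test. This held for 384 genes (2.76%) read in iSP and 349 (2.51%) read in E12.5 SP. For the genes named below, that was through iSP alone in *Zic1*, *Zic2*, *Zic4*, *Emx2*, *Lhx2*, *Lhx9*, *Lmx1b*, *Tbx4*, *Tbx5*, *Msx1*, *Pax3*, *Myog*, *Hoxb13*, *Cldn5*, *Lin28a*, *Rspo4*, *Wnt16*, *Fgf9*, *Cdkn2a*, *Car9*, *C130021I20Rik* and *E330013P04Rik*. It was through E12.5 SP alone in the named erythroid genes and in *Plagl1*, *Peg13*, *Adamts18*, *Rps2-ps13*, *Penk*, *Myocd*, *Cnn1*, *Klf5*, *Perp*, *Fas*, *Hprt*, *Xist*, *Kdm5d*, *Wnt2*, *Wnt6*, *Fgf18*, *Fst*, *Hhip*, *Igfbp6*, *Rxrg*, *Cxcl10*, *Cxcl13* and *Naalad2*. Whether reads were counted by strand is not known, so values are uncertain for *Bmp5*, *Hoxa11*, *Rarb*, *Spry1*, *Ccnd1*, *Ctgf*, *Mest*, *Bnip3*, *Tbx18*, *Tagln*, *Tshz2* and *Gm10260*, which share over 20% of their exonic bases with a gene on the opposite strand. Of 284 named genes called, the log2 fold change moved by over 0.5 in 15 without E12.5 SP replicate 1, and by a median of 0.11. Among the 15, *Nr4a3* went from -3.83 to -3.07, *Nr4a1* from -3.36 to -2.73 and *Cxcl10* from -3.13 to -2.14. *Hsph1* went from -1.48 to -0.81, *AI506816* from -2.08 to -3.01 and *Stc2* from 1.64 to 0.89. For other genes whose call or size turned on that library, values without it are given below.

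**Figure D1:**
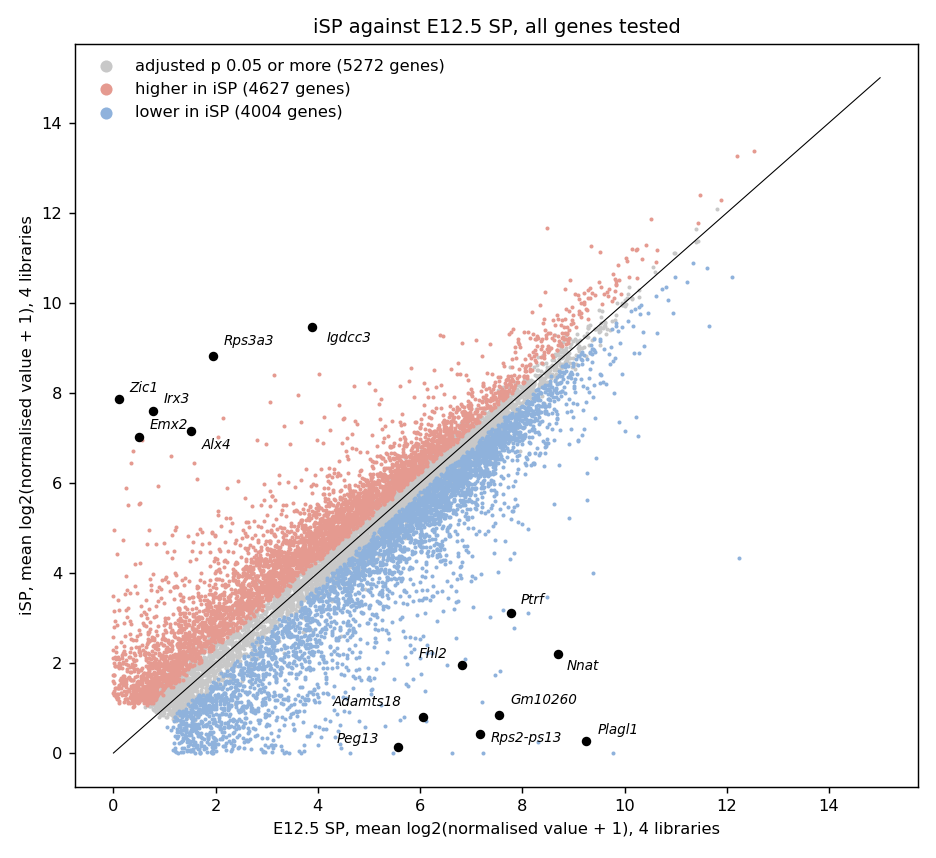
Mean log2(normalised CPM + 1) of the 4 E12.5 SP libraries (x axis) and of the 4 iSP libraries (y axis) for the 13903 genes tested, with 4627 genes called higher in iSP in red, 4004 called lower in blue and the rest in grey. The named genes among the 8 of lowest p on each side are drawn in black with their symbols and lie far from the diagonal of equal means.

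By p-value, the first 8 genes higher in iSP included *Zic1*, *Rps3a3*, *Alx4*, *Irx3*, *Emx2* and *Igdcc3*. *Zic1*, a zinc finger factor of dorsal neural tube and somite (chr9:91358058-91365810 of GRCm38, minus strand), stood at 239, 234, 212 and 245 normalised CPM in the iSP libraries and 0.0542, 0.0202, 0 and 0.229 in the E12.5 SP libraries, a log2 fold change of 7.77 ± 0.11 (SE; adjusted p = 3.0e-10). The homeobox gene *Irx3* stood at 199, 189, 179 and 211 against 0.867, 0.484, 0.383 and 1.19 (6.84 ± 0.15). All 4 iSP values of these genes lay far above all 4 E12.5 SP values, which their choice by p-value fixed, and *Zic1* and *Emx2* passed the filter through iSP alone.

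*Emx2* (chr19:59458372-59465357, plus strand), a homeobox gene that the ureteric bud needs and that is also made in other mesoderm, stood at 121, 134, 139.9 and 124 normalised CPM in iSP and 0.271, 0.968, 0.287 and 0.229 in E12.5 SP, a log2 fold change of 6.53 ± 0.16. *Igdcc3* (chr9:65141189-65185872), an immunoglobulin superfamily gene, stood at 687, 725, 697 and 701 against 12.6, 12.9, 19.1 and 11.7 (5.57 ± 0.14). Both groups were thus clearly apart in these genes too, and each fold change moved by little without E12.5 SP replicate 1 (6.48 and 5.53). *Rps3a3* is listed at 397 to 502 in iSP and 2.33 to 3.44 in E12.5 SP, but its transcript is 98.9% identical to *Rps3a1*, so reads could have been split between them. *Irx3* and *Emx2* each share exonic bases with an antisense gene, and it is not stated whether reads were counted by strand.

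The first 8 lower in iSP were *Plagl1*, *Gm10260*, *Peg13*, *Nnat*, *Rps2-ps13*, *Fhl2*, *Ptrf* and *Adamts18*. *Fhl2*, a LIM-domain cofactor of contractile and stressed cells (chr1:43123074-43196984, minus strand), stood at 2.90, 3.30, 2.25 and 3.08 normalised CPM in iSP and 114.6, 97.8, 119 and 119.8 in E12.5 SP, a log2 fold change of -4.88 ± 0.12 (adjusted p = 6.3e-09). *Ptrf*, which encodes cavin 1, a coat protein of caveolae (chr11:100956733-100970887), stood at 9.33, 8.67, 6.39 and 6.72 against 195, 244, 217 and 225 (-4.66 ± 0.13). *Adamts18*, a secreted protease (chr8:113697126-113848738), stood at 0.628, 0.967, 0.923 and 0.507 against 53.6, 70.6, 77.2 and 61.5 (-5.24 ± 0.15). No iSP library reached any E12.5 SP library in these 3 genes, which their choice by p-value fixed. *Plagl1*, *Peg13*, *Rps2-ps13* and *Adamts18* passed the filter through E12.5 SP alone. *Gm10260* and *Rps2-ps13* are ribosomal protein copies whose transcripts are 99.1% and 97.8% identical to *Rps18* and *Rps2*, so their values (0.406 to 1.26 against 173 to 199, and 0.143 to 0.743 against 118 to 165) are uncertain. *Plagl1*, *Peg13* and *Nnat* are imprinted and are described with that group.

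Of 14 markers of the renal stroma tested, 7 were lower in iSP, 3 higher and 4 not called, with a median log2 fold change of -0.95. *Foxd1* (chr13:98354242-98359305, plus strand) stood at 11.4, 19.2, 17.3 and 12.9 normalised CPM in iSP replicates 1 to 4 and at 546, 717, 758 and 649.7 in E12.5 SP replicates 1 to 4, a log2 fold change of -5.39 ± 0.17 (adjusted p = 2.4e-08). All iSP libraries held *Foxd1* reads above the limit of detection, and none came near an E12.5 SP library. *Ntn1*, the guidance cue netrin 1, stood at 41.6 to 55.8 in iSP against 279 to 901 (-3.63 ± 0.32). *Aldh1a2*, the main enzyme of retinoic acid synthesis in cortical stroma, stood at 165 to 182 against 965 to 1383 (-2.76 ± 0.11), and the cadherin *Fat4* at 121 to 196 against 487 to 1299 (-2.53 ± 0.29).

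The remaining called stromal genes were split. *Tcf21*, a mesenchymal bHLH factor, stood at 15.5, 22.2, 18.9 and 17.7 normalised CPM in iSP and 52.1, 111, 102 and 96.4 in E12.5 SP (-2.18 ± 0.22), and *Dcn*, the proteoglycan decorin, at 4.87 to 5.77 against 21.8 to 27.9 (-2.01 ± 0.11). *Meis3* was lower as well (-1.56 ± 0.14). *Pdgfrb* and *Sfrp1* were called higher by small amounts, with log2 fold changes of 0.49 and 0.44, calls that some other settings did not keep. The homeobox genes *Meis1* and *Meis2*, widely used to mark this lineage, were not called: *Meis1* lay at 267 to 296 in iSP and 185 to 298 in E12.5 SP (0.14 ± 0.14), and *Meis2* at 624 to 648 and 386 to 601 (0.25 ± 0.14). E12.5 SP replicate 1 was the lowest E12.5 SP library in 11 of these 14 genes, against 42.4% of all genes tested. Without it, *Nr2f1* and *Nr2f2* were also called lower, at -0.42 and -0.41, giving 9 lower and 3 higher.

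Genes of medullary and ureteric stroma followed a similar split, with 6 lower and 2 higher of 13 tested (7 and 3 without E12.5 SP replicate 1). Of the 13, 2 passed the filter through E12.5 SP alone, and the other 11 gave 4 lower and 2 higher. *Penk*, an opioid precursor of medullary stroma, stood at 0.304 to 0.676 normalised CPM in iSP against 14.3 to 19.9 (-3.58 ± 0.14), and *Cldn11* at 0.87 to 1.03 against 16.5 to 22.2 (-3.34 ± 0.12). *Tbx18*, which marks the ureteric mesenchyme, stood at 14.4 to 18.3 against 58.7 to 73.1 (-1.92 ± 0.11). *Myocd*, the coactivator of smooth muscle genes, was lower too (-1.99 ± 0.25). *Tbx3*, a T-box factor of ureter and limb mesenchyme, was higher in iSP, at 149 to 192 against 25.3 to 46.3 (2.21 ± 0.18), and so was *Tshz2* (1.22), which overlaps an antisense gene.

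**Figure D2:**
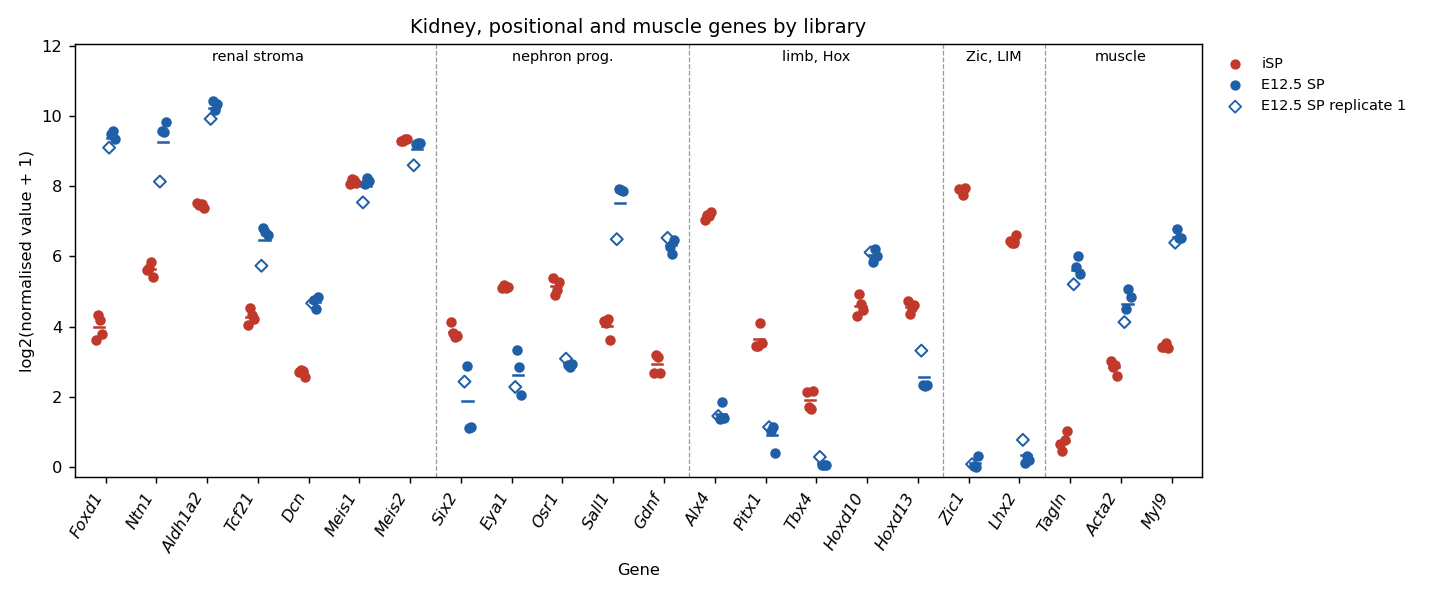
Log2(normalised CPM + 1) of 22 genes in each of the 4 iSP libraries and the 4 E12.5 SP libraries, with group means as lines and E12.5 SP replicate 1 as an open diamond; the panels hold renal stroma, nephron progenitor, limb and tail, *Zic1* and *Lhx2*, and smooth muscle genes. *Foxd1* and *Tagln* sit far lower in iSP, *Six2*, *Eya1*, *Alx4* and *Zic1* higher, and *Meis1* and *Meis2* differ little beside them.

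Genes of nephron progenitors were mostly higher in the iSP, with 9 higher, 2 lower and 3 not called of 14 tested (9 and 3 without E12.5 SP replicate 1) and a median log2 fold change of 1.78. *Six2*, the factor that keeps nephron progenitors undifferentiated, stood at 16.3, 12.97, 12.04 and 12.3 normalised CPM in iSP and 4.39, 6.35, 1.15 and 1.19 in E12.5 SP (1.95 ± 0.38, adjusted p = 0.0016). *Eya1*, its cofactor, stood at 33.2, 34.99, 33.2 and 33.9 against 3.85, 9.11, 6.17 and 3.12 (2.50 ± 0.25). *Osr1*, an early intermediate mesoderm factor, stood at 28.9 to 40.5 against 6.22 to 7.47 (2.20 ± 0.13), *Pax8* at 6.29 to 14.4 against 0.229 to 2.72 (2.73 ± 0.36), and *Meox1* at 157 to 180.4 against 16.5 to 27.3 (2.94 ± 0.15). In bulk cells, more cells of a type and more RNA per cell cannot be told apart.

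A pair of nephron progenitor genes went the other way. *Gdnf*, the growth factor that draws out the ureteric bud, stood at 5.41, 8.13, 7.83 and 5.44 normalised CPM in iSP and 91.2, 75.5, 66.1 and 86.9 in E12.5 SP (-3.40 ± 0.16), and *Sall1*, a zinc finger factor of the cap mesenchyme, at 16.9, 16.2, 17.7 and 11.2 against 88.8, 239.5, 234 and 229 (-3.51 ± 0.31). No iSP library overlapped an E12.5 SP library in either gene. *Cited1* and *Wt1* were not called, at 2.01 to 2.81 against 2.01 to 4.01 and 146 to 187 against 114 to 246. *Wt1* was called lower without E12.5 SP replicate 1 (-0.49).

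Genes of the cell types that the gate was set to remove were still read in both groups. Ureteric bud genes gave 5 higher and 2 lower of 9 tested with or without E12.5 SP replicate 1, with *Emx2* the farthest apart. The E-cadherin gene *Cdh1* stood at 3.45 to 6.57 normalised CPM in iSP against 0.325 to 3.16 (1.58 ± 0.35), and *Calb1* at 4.08 to 5.14 against 0.217 to 3.39 (1.71 ± 0.37). Endothelial genes gave 8 higher and 2 lower of 13 (9 and 2 without that library), with *Kdr*, a receptor for VEGF, at 11.3 to 19.6 against 2.71 to 5.16 (1.75 ± 0.21), *Cdh5* at 8.35 to 12.6 against 2.49 to 4.94 (1.43 ± 0.20) and *Cldn5* at 5.39 to 10.7 against 0.275 to 0.887 (2.52 ± 0.22). The 2 endothelial genes called lower, *Flt1* (-0.53) and *Tek* (-0.47), were not called under several of the other settings tried, while edgeR and quantile normalisation each called 4 lower. Summed over the lists, ureteric bud genes stood at 202 to 217 normalised CPM in iSP against 81.2 to 112 in E12.5 SP, and endothelial genes at 85.4 to 119.9 against 58.6 to 72.1 in E12.5 SP. *Emx2* set the direction of the former, since the ureteric bud sums without it were 76.4 to 86.9 in iSP and 80.9 to 111 in E12.5 SP. In all E12.5 SP libraries *Emx2* and 3 of the 13 endothelial genes lay below 1 normalised CPM, so they passed the filter through iSP alone. The part of either cell type in the results was not tested.

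Erythroid genes were read almost wholly in the fetal libraries. The 8 tested lay below 1 normalised CPM in every iSP library, so they passed the filter through E12.5 SP alone, which set their direction. In iSP, 7 of them, the globins *Hbb-y*, *Hba-x*, *Hba-a1*, *Hbb-bs*, *Hbb-bh1* and *Hbb-bt* and the haem enzyme *Alas2*, had 0 reads in all 4 libraries. The embryonic globin *Hbb-y* stood at 207, 2080, 2006 and 665 normalised CPM in E12.5 SP. Against a limit of 3 reads per library, its E12.5 SP mean was at least 8552-fold above iSP. That of *Hba-x*, at 33.5, 363, 433 and 92.1, was at least 1589-fold above. Both bounds rest on the mean, which the lowest library does not reach. E12.5 SP replicate 1 was the lowest of its group in all 8 erythroid genes. Of 14 macrophage genes, only *Cd68* passed the filter on low values. It lay at 1.79 to 3.18 in iSP, 18.5 in E12.5 SP replicate 1 and 2.34 to 4.30 in the other 3. Limma did not call it, while edgeR called it lower in iSP. *C1qa* had 0 reads in iSP and lay at 0 to 0.138 in E12.5 SP. Of 7 neural and neural crest genes tested, 4 were higher and 2 lower with either set of libraries, though edgeR called 3 higher and quantile normalisation and the replicate block 2, with *Stmn2*, a microtubule regulator of neurons, at 52.2 to 80.8 against 1.84 to 8.37 (3.60 ± 0.35), while *Sox10* did not pass the filter.

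Of 16 transcription factor genes of limb, lateral plate and head mesenchyme tested, 13 were higher in iSP, 1 lower and 2 not called (14 and 1 without E12.5 SP replicate 1). Of the 16, 7 lay below 1 normalised CPM in every E12.5 SP library and passed the filter through iSP alone, which set their direction, and the other 9 gave 6 higher and 1 lower. *Alx4* stood at 131, 143, 141 and 153 normalised CPM in iSP and 1.73, 1.57, 2.58 and 1.61 in E12.5 SP (5.65 ± 0.13, adjusted p = 5.0e-09), with no overlap between the groups.

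Limb type genes were among them. *Pitx1* and *Tbx4*, which mark the hindlimb field, stood at 9.95 to 16.2 and 2.14 to 3.51 normalised CPM in iSP and 0.321 to 1.20 and 0.0403 to 0.217 in E12.5 SP (2.72 ± 0.21 and 1.80 ± 0.15). *Tbx5*, the forelimb counterpart, had 0 reads in all E12.5 SP libraries. It lay at 2.64 to 4.21 in iSP, with a mean at least 20.8-fold higher. *Prrx1*, a marker of limb and trunk wall mesenchyme, stood at 545 to 715 against 50.5 to 116 (2.82 ± 0.23), and *Msx1* at 9.09 to 11.8 against 0.101 to 0.335 (3.22 ± 0.12). *Gata6* was the member called lower (-1.50 ± 0.16).

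Of 10 Zic and LIM homeobox genes tested, 8 lay below 1 normalised CPM in every E12.5 SP library and passed the filter through iSP alone, so that they could not be called lower. Of the other 2, 1 was higher. Over all 10, 9 were higher and none lower, and 10 and none without E12.5 SP replicate 1. *Lhx2* stood at 85.5, 81.8, 81.5 and 96.5 normalised CPM in iSP and 0.704, 0.0806, 0.239 and 0.138 in E12.5 SP (6.10 ± 0.15), and *Lhx9*, its close relative in limb and gonad mesenchyme, at 4.30 to 4.93 against 0 to 0.262 (2.32 ± 0.12). *Lmx1b*, which patterns dorsal limb mesenchyme, stood at 9.23 to 12.3 against 0.191 to 0.826 (3.10 ± 0.16). *Zic4* lies beside *Zic1* and shares 60 exonic bases with it on the other strand. It had 0 reads in all E12.5 SP libraries and stood at 9.05 to 11.5 in iSP, with a mean at least 63.4-fold higher. *Zic2* was higher too (1.36).

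Paraxial and somite genes gave 7 higher and 2 lower of 10 tested (7 and 3 without E12.5 SP replicate 1). Of the 10, 2 passed the filter through iSP alone, and the other 8 gave 5 higher and 2 lower. *Pax1*, of the sclerotome, stood at 29.4, 24.3, 24.1 and 31.2 normalised CPM in iSP and 1.95, 1.25, 1.24 and 2.94 in E12.5 SP (3.34 ± 0.19). *Pax3*, of the dermomyotome, had 0 reads in all E12.5 SP libraries against 1.65 to 2.71 in iSP, with a mean at least 12.6-fold higher. *Foxc1* went the other way by a wide margin, at 4.25, 9.31, 6.46 and 4.36 against 226, 217, 248 and 223 (-5.07 ± 0.20), and *Foxc2* by less (-1.46 ± 0.16). *Tbx6*, *Msgn1* and the other genes of the earliest paraxial mesoderm did not pass the filter.

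Cartilage, bone and tendon genes gave 8 higher and 2 lower of 16 tested (9 and 3 without E12.5 SP replicate 1), and 6 and 2 of 14 without the 2 that passed the filter through iSP alone. *Col2a1*, the main collagen of cartilage, stood at 283, 315, 307 and 278 normalised CPM in iSP and 65.3, 30.2, 29.5 and 15.4 in E12.5 SP (3.22 ± 0.34), *Sox5* at 16.1 to 20.8 against 5.87 to 7.22 (1.43 ± 0.12) and *Sox6* at 7.39 to 10.5 against 1.47 to 3.01 (1.80 ± 0.18), whereas *Sox9* was not called (-0.36 ± 0.24). *Runx2*, the leading factor of bone, was lower, at 1.79 to 3.21 against 13.4 to 37.3 (-2.90 ± 0.28). Of 7 skeletal muscle genes tested, 4 were higher, among them *Myog* at 1.83 to 4.93 against 0 to 0.0542 normalised CPM. *Tnnt1* was the 1 lower, and the counts were the same without E12.5 SP replicate 1. Of the 7, 3 passed the filter through iSP alone, *Myog* included, and the other 4 gave 1 higher and 1 lower.

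Smooth muscle genes were lower in iSP, with 10 lower, 1 higher and 2 not called of 13 tested (12 and 1 without E12.5 SP replicate 1) and a median log2 fold change of -1.79. *Tagln*, an actin-binding protein of smooth muscle, stood at 0.58, 0.358, 0.702 and 1.05 normalised CPM in iSP and 35.9, 51.1, 63.4 and 44.2 in E12.5 SP (-4.88 ± 0.19), although 62.4% of its exonic bases overlap an antisense gene. *Myl9*, a myosin light chain, stood at 9.66, 9.67, 10.5 and 9.39 against 82.8, 108, 90.7 and 91.3 (-3.12 ± 0.10), and *Acta2*, smooth muscle actin, at 7.05, 6.23, 6.50 and 5.03 against 16.5, 21.8, 32.5 and 27.5 (-1.79 ± 0.20). Each E12.5 SP library was above each iSP library in these 3 genes. *Mylk* (-2.45), *Synpo2* (-2.24), *Tpm1* (-2.14) and *Cnn1* (-1.69) were lower as well. *Cnn1* passed the filter through E12.5 SP alone, and the other 12 gave 9 lower and 1 higher. *Des* (-0.61) and *Cald1* (-0.24) were called lower only without replicate 1. *Rgs5*, a pericyte gene, was the member called higher (0.38 ± 0.14), a call not kept under every setting.

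Hox genes, whose position along each cluster follows their position along the body axis, moved in both directions. In groups 1 to 8, 5 were higher and 11 lower of 22 tested (4 and 11 without E12.5 SP replicate 1), with a median of -0.41; *Hoxa6* (-1.44 ± 0.38), *Hoxc4* (-1.28 ± 0.15) and *Hoxc8* (-1.26 ± 0.28) were lower, and *Hoxb8* (1.64 ± 0.14) and *Hoxb7* (1.11 ± 0.13) higher. In groups 9 to 13, 6 were higher and 4 lower of 13 tested (6 and 5 without it). The shares were 22.7% and 50.0% in groups 1 to 8 and 46.2% and 30.8% in groups 9 to 13. Over all genes tested they were 33.3% and 28.8%. *Hoxd13*, at the tail end of its cluster, stood at 25.4, 19.6, 21.9 and 23.5 normalised CPM in iSP and 8.94, 4.07, 3.92 and 3.99 in E12.5 SP (1.99 ± 0.22), and *Hoxb13* at 1.77 to 2.69 against 0 to 0.0542.

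The kidney mesenchyme is known to carry the group 10 and 11 genes. *Hoxd10* and *Hoxd11* were lower in iSP, at 18.6 to 29.6 against 56.3 to 72.5 (-1.46 ± 0.14) and 47.7 to 63.8 against 109 to 132 normalised CPM (-1.11 ± 0.11). *Hoxa11* and *Hoxc10* were not called, at 54.9 to 69.4 against 59.5 to 72.2 and 202 to 208 against 174 to 209, and *Hoxc11* was higher (1.07 ± 0.10). *Hoxa10* was called lower only without E12.5 SP replicate 1 (-0.20).

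**Figure D3:**
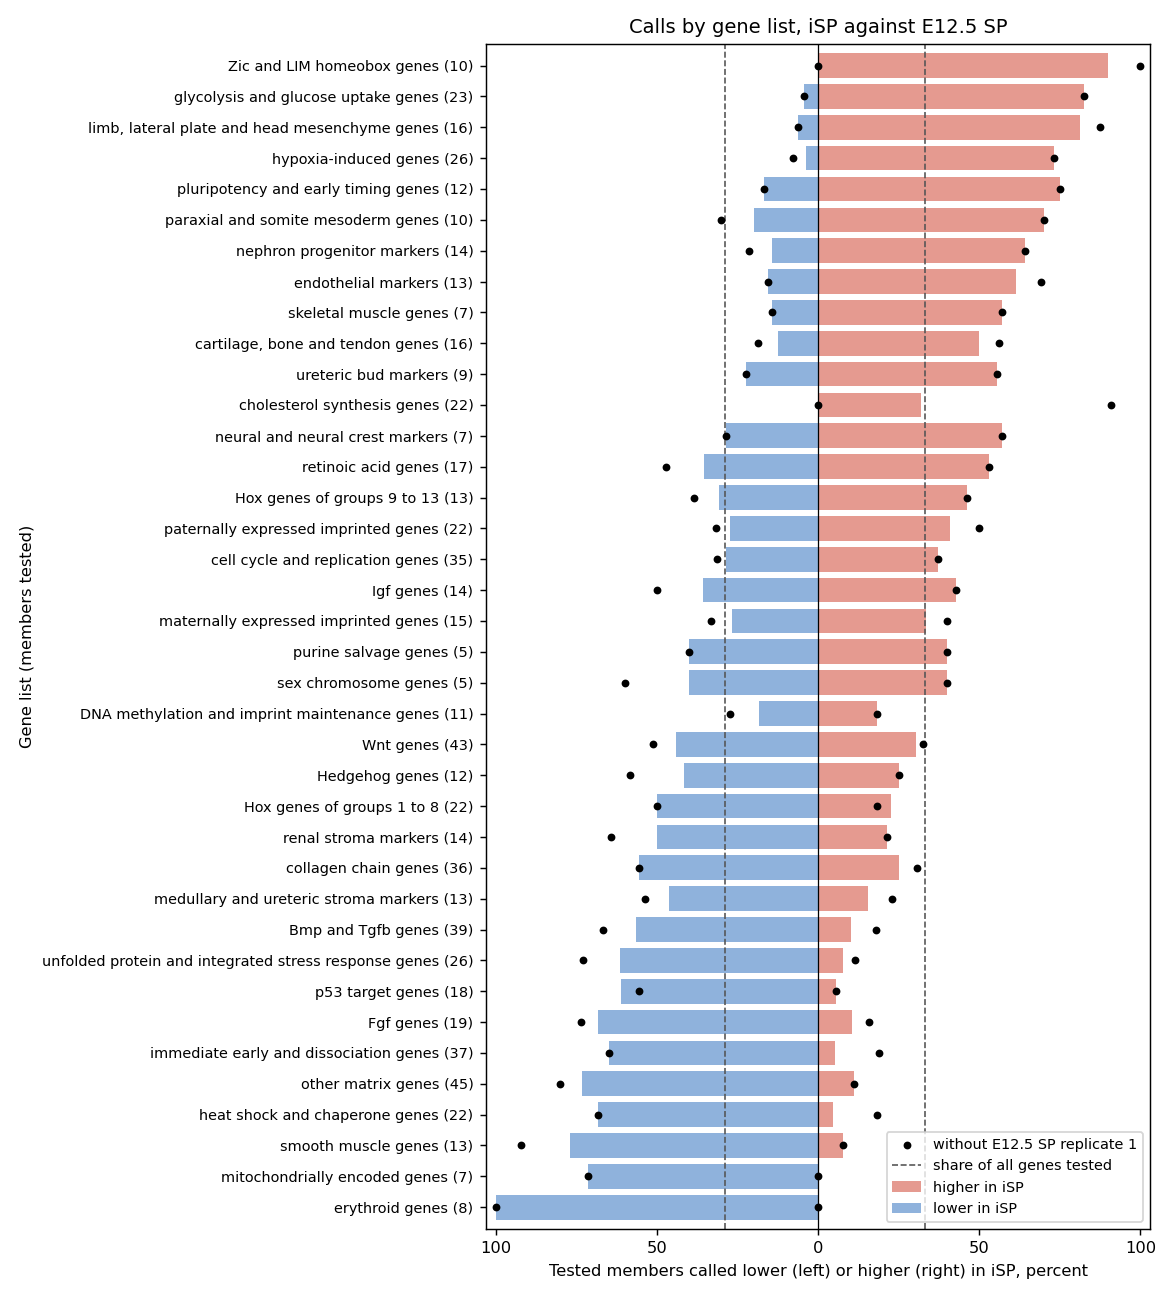
Percent of the tested members of each gene list (at least 5 tested) called higher in iSP, to the right, or lower, to the left, with the same shares without E12.5 SP replicate 1 as black dots and the shares of all genes tested (33.3% higher, 28.8% lower) as dashed lines. Limb and head mesenchyme, Zic and LIM, glycolysis and hypoxia genes lie mostly to the right, and matrix, smooth muscle, erythroid, immediate early, heat shock and Bmp and Tgfb genes mostly to the left; all 8 erythroid and 8 of the 10 Zic and LIM members passed the filter on low values through 1 group alone, as did 7 of 43 Wnt, 7 of 16 limb and head, 4 of 39 Bmp and Tgfb, 3 of 45 matrix, 2 of 37 immediate early, 2 of 36 collagen, 1 of 13 smooth muscle and 1 of 26 hypoxia members.

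Imprinted genes, which are read from a single parental copy, held some of the largest differences but no common direction. Of 22 paternally expressed genes tested, 9 were higher and 6 lower (11 and 7 without E12.5 SP replicate 1), where 3 of the 6 passed the filter through E12.5 SP alone and the other 19 genes gave 9 higher and 3 lower. Of 15 maternally expressed genes, 5 were higher and 4 lower (6 and 5 without it). The paternal shares were 40.9% and 27.3%. The maternal shares, 33.3% and 26.7%, were near the 33.3% and 28.8% of all genes tested. *Plagl1* (chr10:13060504-13131694, plus strand), a zinc finger factor, stood at 0.193, 0.107, 0.369 and 0.135 normalised CPM in iSP and 500.2, 586, 653 and 718 in E12.5 SP (-8.99 ± 0.13, adjusted p = 3.0e-10). *Nnat*, a small membrane protein, stood at 5.03, 3.47, 3.66 and 2.64 against 450.1, 428, 418 and 361 (-6.49 ± 0.15), and the non-coding *Peg13* at 0, 0.251, 0.111 and 0.0676 against 47.8, 51.3, 43.4 and 42.9 (-5.42 ± 0.12). iSP libraries were close to the limit of detection for *Plagl1* and well clear of the E12.5 SP libraries for all 3.

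*H19*, a maternally expressed non-coding RNA, stood at 12.9, 15.8, 29.8 and 22.3 normalised CPM in iSP and 4107, 4671, 5068 and 5546 in E12.5 SP (-7.90 ± 0.22). Its paternally expressed neighbour *Igf2*, a growth factor, was higher, at 9474 to 10242 against 3801 to 5202 (1.06 ± 0.12), though 62.8% of its exonic bases are shared with another gene on the same strand. *Grb10*, which dampens insulin and Igf receptors, was lower, at 107 to 157 against 939 to 1428 (-3.22 ± 0.16), and *Peg10*, a gene of retroviral origin, higher, at 3071 to 3363 against 286 to 393 (3.19 ± 0.11). *Meg3* was not called (-0.88 ± 0.58), nor were *Dlk1* (0.05 ± 0.16) and *Mest* (-0.07 ± 0.13). *Gnas* was called higher only without that library (0.20). Of 11 genes of DNA methylation and imprint upkeep, 2 were higher, *Dnmt3b* (0.87 ± 0.14) and *Trim28* (0.27 ± 0.09), and 2 lower, *Tet2* (-0.76) and *Tet3* (-0.66) (2 and 3 without replicate 1). The calls of *Trim28* and *Tet2* were not kept under every setting.

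Immediate early genes and others that rise when tissue is dissociated were mostly lower in iSP, with 24 lower and 2 higher of 37 tested, and E12.5 SP replicate 1 weighed on them. Without it the counts were 24 lower and 7 higher, and the median log2 fold change went from -1.30 to -0.99. *Atf3*, a stress-induced factor, stood at 3.09, 2.47, 2.73 and 3.21 normalised CPM in iSP and 360.3, 53.3, 62.3 and 55.7 in E12.5 SP (-4.57 ± 0.54; -3.91 without that library). *Klf6* stood at 21.6, 21.3, 18.1 and 21.8 against 394, 206, 164 and 199 (-3.40 ± 0.23; -3.13 without it), and *Maff*, a small Maf factor, at 11.2, 12.4, 11.1 and 9.77 against 489, 57.1, 65.6 and 60.01 (-3.10 ± 0.60; -2.35 without it). *Ctgf*, a matricellular protein, stood at 0.811 to 2.22 against 53.1 to 93.8 (-4.71 ± 0.22). In these 4 genes each of the E12.5 SP libraries, not only replicate 1, was above all iSP libraries.

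The classical members behaved otherwise. *Fos* stood at 415 to 508 normalised CPM in iSP, at 1009 in E12.5 SP replicate 1 and at 179.6 to 302 in the other 3, and was not called (0.45 ± 0.45), but was called higher in iSP without that library (0.98). *Fosb* and *Junb* did the same (1.32 and 0.76 without it), and *Jun* and *Egr1* were called in neither case. *Nr4a2* and *Dusp1* were called in neither direction with all libraries (-0.25 ± 0.57 and, for *Dusp1*, an SE of 0.36 around a change near 0) and higher in iSP without replicate 1 (0.43 and 0.43). *Ier3* (1.26 ± 0.31) and *Socs3* (0.85 ± 0.29) were the 2 called higher with all 8 libraries, the second not under several of the other settings tried. *Atf3*, *Maff*, *Klf5* and *Plagl1*, which the study chose as muscle genes from a comparison of the same iSP libraries with E11.5 SP, were all lower. As those iSP libraries are shared, and as *Plagl1* and *Klf5* passed the filter through E12.5 SP alone, their count is not independent evidence of a direction. *Klf5* stood at 0.743 to 0.96 against 14.8 to 34.8 (-3.50 ± 0.24; -3.24 without it).

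Heat shock and chaperone genes were lower too, with 15 lower and 1 higher of 22 tested (15 and 4 without E12.5 SP replicate 1). *Hspa1a*, the inducible HSP70, stood at 0.773, 1.29, 0.665 and 0.912 normalised CPM in iSP and 512, 7.32, 6.65 and 7.16 in E12.5 SP, a log2 fold change of -3.58 ± 1.20 that was -2.08 without replicate 1. It was not called, at -3.55, -3.52 and -3.59, without iSP replicate 1, 3 or 4. Its near copy *Hspa1b*, 99.2% identical over 2201 bases, could share reads with it and gave -3.08 ± 1.21, and -1.57 without E12.5 SP replicate 1. *Hspb1*, a small heat shock protein, stood at 2.22, 1.07, 1.70 and 1.08 against 182, 18.4, 17.1 and 16.9 (-3.73 ± 0.68; -2.90 without it), and *Bag3*, a cochaperone, at 34.98, 32.1, 32.0 and 31.8 against 172, 77.1, 73.7 and 82.4 (-1.51 ± 0.24). Replicate 1 was the highest of the E12.5 SP libraries in 20 of the 22 genes. The other 3 E12.5 SP libraries still lay above the iSP libraries in *Hspb1*. *Dnajb1*, the HSP40 that partners HSP70, changed side, while *Hspa8* (0.72) and *Dnajb5* (0.44) were called higher only without replicate 1. *Dnajb1* was at 97.3 to 108 in iSP, 1205 in replicate 1 and 69.1 to 88.3 in the others, not called with all libraries (-0.61 ± 0.79) and called higher without replicate 1 (0.37).

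Heat shock factors bind inverted repeats of short GAA blocks. The promoters of 3 members that were lower together are shown to let that motif be seen. They run from 250 bases before to 50 after the RefSeq start (GRCm38.p6, 5′ to 3′ on the gene's strand), with capitals on each match to GAANNTTC, which reads the same on both strands: *Hspa1a* at chr17:34972107-34972406 (minus), *Hspb1* at chr5:135887669-135887968 (plus) and *Bag3* at chr7:128523333-128523632 (plus).
Hspa1a: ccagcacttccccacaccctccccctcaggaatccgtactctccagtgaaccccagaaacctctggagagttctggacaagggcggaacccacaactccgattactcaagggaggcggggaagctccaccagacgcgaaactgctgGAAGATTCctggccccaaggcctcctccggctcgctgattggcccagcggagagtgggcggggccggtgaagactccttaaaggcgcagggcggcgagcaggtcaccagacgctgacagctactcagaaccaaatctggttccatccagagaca
Hspb1: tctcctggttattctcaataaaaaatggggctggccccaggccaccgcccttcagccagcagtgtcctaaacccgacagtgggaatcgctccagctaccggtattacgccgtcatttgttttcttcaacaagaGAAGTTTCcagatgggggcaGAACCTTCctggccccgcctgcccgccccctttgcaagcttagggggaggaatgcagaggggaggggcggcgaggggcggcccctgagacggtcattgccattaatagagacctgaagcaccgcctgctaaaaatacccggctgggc
Bag3: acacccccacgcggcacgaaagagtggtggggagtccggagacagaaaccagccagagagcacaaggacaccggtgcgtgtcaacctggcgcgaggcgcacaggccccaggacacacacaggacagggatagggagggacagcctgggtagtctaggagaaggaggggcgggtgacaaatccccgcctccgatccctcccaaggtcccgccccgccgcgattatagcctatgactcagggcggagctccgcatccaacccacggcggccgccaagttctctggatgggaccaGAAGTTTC
The match was found in 11 of the 19 tested members with a promoter entry (57.9%), against 9.04% of all 27025 genes with an entry and 7.86% of all 32851 promoters of this length. *Dnajb1*, *Dnajb4* and *Hspa5* were among the 8 with no match in this window. A match of letters is a description and not a bound site.

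Genes of the unfolded protein and integrated stress responses were lower in iSP as well, with 16 lower and 2 higher of 26 tested, and 19 and 3 without E12.5 SP replicate 1. Replicate 1 was the lowest of its group in 14 of the 26 (53.8%) and the highest in 10 (38.5%), against 42.4% and 32.7% of all genes tested. *Trib3*, a pseudokinase induced by ATF4, stood at 18.1, 10.7, 9.31 and 9.70 normalised CPM in iSP and 2.49, 64.8, 61.6 and 57.2 in E12.5 SP, and was called only without that library (-1.27 ± 0.85 with it, -2.31 without). *Chac1*, which degrades glutathione, stood at 5.75, 3.30, 2.47 and 3.95 against 2.49, 65.6, 61.8 and 43.2 (-2.58 ± 0.83; -3.59 without it, and not called, at -2.17 to -2.44, without E12.5 SP replicate 2, 3 or 4 or iSP replicate 3). *Atf4* itself stood at 130.5 to 135 against 529 to 671 (-2.10 ± 0.09), the folate enzyme *Mthfd2* at 29.0 to 41.7 against 69.2 to 269 (-2.35 ± 0.38) and *Herpud1*, of protein quality control, at 42.4 to 52.8 against 172 to 214 (-2.09 ± 0.10). *Ddit4*, an inhibitor of mTORC1 signalling, was higher (2.09 ± 0.41; 1.59 without it), and *Ddit3* was not called (-0.25 ± 0.19). *Asns* and *Slc7a11* were called lower only without replicate 1 (-1.12 and -1.45), and *Sdf2l1* higher (0.28).

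**Figure D4:**
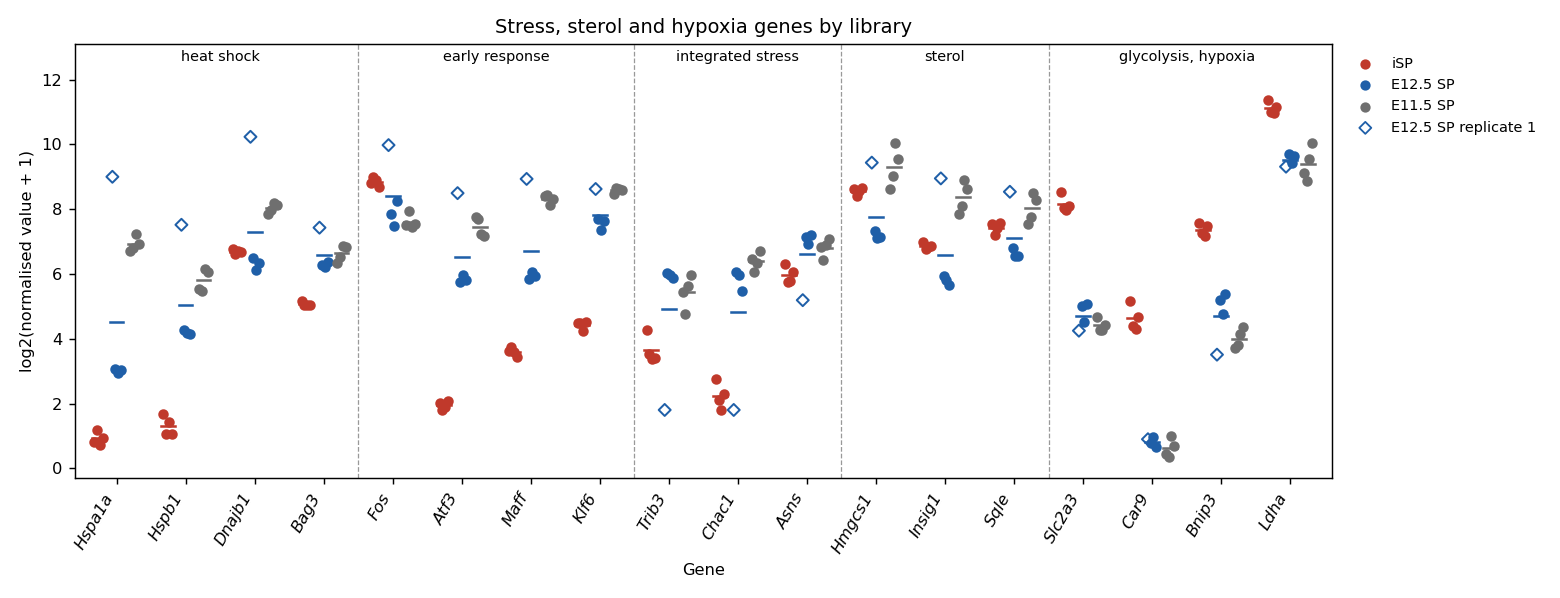
Log2(normalised CPM + 1) of 18 stress, sterol and hypoxia genes in each of the 4 libraries of iSP, E12.5 SP and E11.5 SP, with group means as lines and E12.5 SP replicate 1 as an open diamond. That library lies above the other 3 E12.5 SP libraries in the heat shock, immediate early and sterol genes and below them in *Trib3*, *Chac1* and *Asns*, while *Slc2a3*, *Car9*, *Bnip3* and *Ldha* lie higher in all iSP libraries.

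Cholesterol synthesis genes, which sterol shortage switches on together, gave 7 higher and none lower of 22 tested with all 8 libraries, and 20 higher and none lower without E12.5 SP replicate 1. That library was the highest of its group in 21 of the 22. *Hmgcs1*, an early enzyme of the pathway, stood at 394, 337, 379 and 405 normalised CPM in iSP and 693, 161, 138 and 141 in E12.5 SP (0.81 ± 0.45, not called; 1.37 without it). *Ebp* (1.55 ± 0.13), *Lss* (1.36 ± 0.22) and *Dhcr7* (1.28 ± 0.19) were called either way, and *Msmo1* (1.46), *Insig1* (1.07) and *Sqle* (0.79) only without it.

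Glycolysis and glucose uptake genes were higher in iSP with and without that library, 19 higher and 1 lower of 23 tested in both cases, with a median log2 fold change of 1.60. *Slc2a3*, a glucose carrier, stood at 366, 260.3, 251 and 273 normalised CPM in iSP and 18.04, 31.0, 21.8 and 33.0 in E12.5 SP (3.44 ± 0.20, adjusted p = 8.0e-07). *Aldoc*, an aldolase, stood at 28.4, 18.3, 17.9 and 21.2 against 1.95, 0.705, 1.15 and 0.734 (3.41 ± 0.21), and *Ldha*, which makes lactate, at 2627, 2038, 2025 and 2284 against 636, 833, 694 and 794 (1.60 ± 0.12). The groups did not overlap in any of them. *Pgk1* (2.27), *Pfkp* (2.24), *Gapdh* (1.57) and *Slc2a1* (1.60) were higher too, and *Eno2* was the member lower in iSP (-1.57 ± 0.41). Several of these genes, such as *Ldha* and *Pgk1*, have near copies that could share reads.

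Genes known to be induced by low oxygen gave 19 higher and 1 lower of 26 tested (19 and 2 without E12.5 SP replicate 1). *Car9*, a carbonic anhydrase, stood at 34.6, 20.2, 18.8 and 24.3 normalised CPM in iSP and 0.867, 0.705, 0.956 and 0.596 in E12.5 SP (3.80 ± 0.18). *Pdk1*, which holds pyruvate back from mitochondria, stood at 290.0, 250.3, 245 and 289 against 26.0, 37.6, 30.4 and 42.3 (2.96 ± 0.15), and *Bnip3*, of mitochondrial turnover, at 189, 154, 143 and 177 against 10.4, 36.0, 26.5 and 40.5 (2.65 ± 0.35). All iSP values of these genes were above all E12.5 SP values, as the filter had set for *Car9*, and the 25 members other than *Car9* gave 18 higher and 1 lower. *Egln3*, an oxygen sensor, was higher by 1.97, *Vegfa* by 0.42 and *Adm* by 1.401 on the log2 scale. *Rora* was the member lower (-0.70), and *Ndrg1* was called lower only without replicate 1 (-0.57). The oxygen supplied to either kind of cell is not given in the labels, and its part was not tested.

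Hypoxia-inducible factors bind a core of ACGTG, and 4 members higher in iSP show how it is placed near their starts. The promoters are cut and written as above, with capitals on ACGTG on either strand (CACGT when read on the other one): *Car9* at chr4:43506776-43507075 (plus), *Bnip3* at chr7:138909457-138909756 (minus), where a match on each strand overlaps, *Egln3* at chr12:54203825-54204124 (minus) and *Slc2a1* at chr4:119108495-119108794 (plus).
Car9: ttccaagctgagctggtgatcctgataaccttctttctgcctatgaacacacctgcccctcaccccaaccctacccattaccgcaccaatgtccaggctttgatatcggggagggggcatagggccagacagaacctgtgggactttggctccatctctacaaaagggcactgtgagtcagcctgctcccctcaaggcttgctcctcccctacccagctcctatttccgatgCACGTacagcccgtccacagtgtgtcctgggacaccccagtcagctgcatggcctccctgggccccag
Bnip3: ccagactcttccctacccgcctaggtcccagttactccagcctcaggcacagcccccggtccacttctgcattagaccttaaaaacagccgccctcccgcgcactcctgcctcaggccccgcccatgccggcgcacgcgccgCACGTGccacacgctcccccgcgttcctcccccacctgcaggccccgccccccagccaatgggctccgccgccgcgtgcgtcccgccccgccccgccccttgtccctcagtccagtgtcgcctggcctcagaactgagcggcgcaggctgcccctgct
Egln3: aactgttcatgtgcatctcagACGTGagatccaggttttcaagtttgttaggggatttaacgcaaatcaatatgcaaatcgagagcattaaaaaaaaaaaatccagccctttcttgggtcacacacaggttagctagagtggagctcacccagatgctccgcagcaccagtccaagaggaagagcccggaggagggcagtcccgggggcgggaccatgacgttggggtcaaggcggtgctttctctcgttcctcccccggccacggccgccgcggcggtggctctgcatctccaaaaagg
Slc2a1: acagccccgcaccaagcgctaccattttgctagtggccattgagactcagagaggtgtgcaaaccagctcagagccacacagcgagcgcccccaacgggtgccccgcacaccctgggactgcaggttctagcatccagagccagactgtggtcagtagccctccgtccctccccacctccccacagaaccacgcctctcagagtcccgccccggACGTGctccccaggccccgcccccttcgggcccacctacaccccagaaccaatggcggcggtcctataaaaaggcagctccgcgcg
The core was present in 14 of the 21 tested members with a promoter entry (66.7%), against 21.8% of all genes with an entry and 19.6% of all promoters. *Pdk1*, *Car12*, *Adm*, *Stc2*, *Kdm3a*, *Pfkfb4* and *Ccng2* held none in this window. Of these 7, 5 were higher in iSP, beside 19 of all 26 tested. *Rora*, the member lower, held a match.

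Targets of p53 gave 11 lower and 1 higher of 18 tested (10 and 1 without E12.5 SP replicate 1). *Perp* and *Fas* passed the filter through E12.5 SP alone, and the other 16 gave 9 lower and 1 higher. *Cdkn1a*, the cell cycle inhibitor p21, stood at 5.27, 3.19, 4.25 and 2.60 normalised CPM in iSP and 31.3, 11.8, 7.41 and 10.9 in E12.5 SP (-1.59 ± 0.37; -1.20 without it), *Perp* at 0.0358 to 0.338 against 2.06 to 4.22 (-1.72 ± 0.18) and *Fas* at 0.0716 to 0.259 against 1.73 to 3.49 (-1.74 ± 0.17). *Trp53inp1* was the member higher (0.83), and *Mdm2* and *Bax* were not called. Cell cycle and replication genes gave 13 higher and 10 lower of 35 (37.1% and 28.6%; 13 and 11 without it), near the 33.3% and 28.8% of all genes tested, with a median of 0.03. *Ccnd1* (-1.56 ± 0.15), *Ccnd2* (-1.04 ± 0.21) and *Ccne2* (-1.51 ± 0.19), cyclins of the G1 phase, were lower, and *Plk1*, a mitotic kinase (0.91 ± 0.08), and the inhibitor *Cdkn2a* (1.99 ± 0.12) higher. *Mki67* was not called (-1.24 ± 0.57), and nor were *Pcna* and *Cdk1*.

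Among genes of pluripotency and early timing, 9 were higher and 2 lower of 12 tested with either set of libraries, but 5 of the 12 lay below 1 normalised CPM in every E12.5 SP library and passed the filter through iSP alone. The other 7 gave 4 higher and 2 lower. *Lin28a*, an RNA-binding protein of early embryonic cells, stood at 20.8, 21.6, 21.8 and 18.1 normalised CPM in iSP and 0.163, 0.0605, 0 and 0 in E12.5 SP (4.35 ± 0.11), and *Trim71* at 20.2 to 25.9 against 3.99 to 20.4 (1.56 ± 0.40). *Pou5f1*, which defines pluripotent cells, did not pass the filter. It lay at 0.702 to 2.08 in iSP, with 0 reads in all E12.5 SP libraries, so its mean was at least 8.67-fold higher at a low level. *Nanog* and *Sox2* also failed the filter. *Klf4*, shared with the immediate early list, was lower (-2.71 ± 0.49; -2.17 without E12.5 SP replicate 1).

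Retinoic acid genes moved both ways, with 9 higher and 6 lower of 17 tested (9 and 8 without E12.5 SP replicate 1, *Rarb* being among the latter at -0.18). With all libraries these were 52.9% and 35.3%, against 33.3% and 28.8% of all genes tested. Beside the lower *Aldh1a2*, *Cyp26b1*, which breaks retinoic acid down, was higher, at 80.4, 80.1, 77.6 and 74.5 normalised CPM in iSP and 7.85, 15.8, 14.1 and 14.7 in E12.5 SP (2.53 ± 0.19). *Stra6*, a receptor for the retinol carrier, was higher as well (1.93 ± 0.10), as were the binding proteins *Crabp1* (1.02 ± 0.11) and *Crabp2* (1.02 ± 0.13), and *Aldh1a3* (-1.28 ± 0.32) and *Rxrg* (-1.85 ± 0.19) were lower.

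Wnt genes gave 13 higher and 19 lower of 43 tested (14 and 22 without E12.5 SP replicate 1). These were 30.2% and 44.2%, against 33.3% and 28.8% of all genes tested. Among ligands, *Wnt2* (-2.78 ± 0.14), *Wnt6* (-1.85 ± 0.22) and *Wnt11* (-0.80 ± 0.14) were lower and *Wnt16* higher (2.14 ± 0.13). Of the secreted enhancers, *Rspo1* stood at 13.5, 13.5, 18.3 and 11.6 normalised CPM in iSP and 0.921, 1.47, 0.813 and 1.009 in E12.5 SP (2.88 ± 0.16), *Rspo4* was higher too (3.71 ± 0.12), and *Rspo3*, of the cortical stroma, lower, at 8.65 to 10.8 against 11.97 to 29.4 (-1.18 ± 0.26). Receptors were divided, *Fzd4* (-2.39 ± 0.11) and *Fzd7* (-1.29 ± 0.13) lower and *Fzd10* (2.20 ± 0.19) and *Fzd2* (1.17 ± 0.11) higher, and so were inhibitors, *Dkk3* (-2.51 ± 0.13) and *Dkk2* (-1.83 ± 0.12) lower and *Frzb* (1.999 ± 0.19) and *Dkk1* (1.26 ± 0.19) higher. Of the targets, *Lef1* was called with neither set of libraries, and *Axin2* only without that library, as higher in iSP (0.34).

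Fgf genes gave 2 higher and 13 lower of 19 tested (3 and 14 without E12.5 SP replicate 1). The ligands *Fgf18* (-3.70 ± 0.22), *Fgf2* (-2.21 ± 0.27) and *Fgf10*, at 3.19 to 3.92 against 9.59 to 10.8 normalised CPM (-1.33 ± 0.11), were lower and *Fgf9* higher (1.31 ± 0.11). *Fgfr1*, *Fgfr2*, *Fgfr3* and *Fgfr4* were all lower, from -0.54 for *Fgfr4* to -1.71 for *Fgfr3*, and among the feedback genes and targets *Etv5* (-1.44 ± 0.16) and *Spry4* (-1.05 ± 0.24) were lower, *Etv1* was higher (0.85) and *Spry1* was called higher only without replicate 1 (0.57).

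Bmp and Tgfb genes gave 4 higher and 22 lower of 39 tested (7 and 26 without E12.5 SP replicate 1), with a median log2 fold change of -0.55. *Bmp7*, a survival factor for nephron progenitors, was the member farthest up, at 152, 148, 165 and 143 normalised CPM in iSP and 7.80, 12.7, 7.41 and 9.50 in E12.5 SP (3.91 ± 0.15). *Tgfb1* (-2.43 ± 0.14), *Bmp2* (-1.91 ± 0.29) and *Bmp5* (-2.02 ± 0.26) were lower among ligands, *Acvr1* (-2.25 ± 0.09), *Bmpr2* (-1.12 ± 0.20) and *Tgfbr2* (-1.08 ± 0.31) among receptors, and *Bmper* (-3.30 ± 0.20) and *Grem1* (-1.56 ± 0.33) among modulators. *Fst*, which traps activins, stood at 0.725, 0.895, 0.369 and 0.574 against 50.0, 23.1, 23.6 and 18.995 (-4.10 ± 0.27). The targets *Id1* and *Id4* were lower (-0.30 and -2.29), and *Smad6* was called higher only without replicate 1 (0.98). *Bmp4* likewise was called higher only without it (0.75), and the ligands *Tgfb2* (-0.94) and *Tgfb3* (-0.79) lower.

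Of 12 Hedgehog genes tested, 3 were higher and 5 lower (3 and 7 without E12.5 SP replicate 1), and the 5 included the pathway's direct targets. *Gli1*, a target and effector, stood at 0.676, 1.58, 0.997 and 1.66 normalised CPM in iSP and 174, 86.3, 188 and 167 in E12.5 SP (-6.08 ± 0.25), *Ptch1*, the receptor, at 37.7, 45.02, 42.8 and 41.2 against 181, 164, 199 and 211 (-2.15 ± 0.10), and *Hhip*, a decoy receptor, at 0.193, 0.358, 0.111 and 0.304 against 3.90, 4.62, 7.89 and 5.87 (-2.37 ± 0.18). No iSP library overlapped an E12.5 SP library in these 3 genes, as the filter had set for *Hhip*, and the 11 members other than *Hhip* gave 3 higher and 4 lower. *Foxl1* was lower too (-3.33 ± 0.18). *Cdon* and *Gas1*, which help the ligand bind, were higher (1.64 ± 0.30 and 0.94 ± 0.17), *Smo* and *Gli2* were not called, and *Gli3* was called lower only without that library (-0.40). The ligand genes *Shh*, *Ihh* and *Dhh* did not pass the filter.

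Igf genes gave 6 higher and 5 lower of 14 tested (6 and 7 without E12.5 SP replicate 1, among them *Igf1r* at -0.35). These shares, 42.9% and 35.7%, stood beside 33.3% and 28.8% of all genes tested. *Igf1* stood at 336, 302, 329 and 384 normalised CPM in iSP and 5.80, 9.57, 6.02 and 10.7 in E12.5 SP (5.27 ± 0.18), and the binding protein *Igfbp2* was higher (1.91 ± 0.13), while *Igfbp7* (-3.39 ± 0.16), *Igfbp6* (-2.75 ± 0.39) and *Igfbp3* (-2.10 ± 0.16) were lower.

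Extracellular matrix genes were mostly lower in iSP. Of 45 matrix genes other than collagens, 33 were lower, 5 higher and 7 not called (36 and 5 without E12.5 SP replicate 1), with a median log2 fold change of -1.02. *Tnc*, tenascin C, stood at 6.43, 9.53, 9.38 and 6.05 normalised CPM in iSP and 60.3, 375, 457 and 566 in E12.5 SP (-5.00 ± 0.60; -5.73 without replicate 1), *Postn*, periostin, at 6.14, 6.81, 8.38 and 7.10 against 132, 157, 154 and 229 (-4.36 ± 0.17), and *Fbln5*, of elastic fibres, at 1.98, 2.76, 3.14 and 1.82 against 50.6, 72.6, 71.0 and 62.4 (-4.25 ± 0.16). In each of them every E12.5 SP library lay well above the iSP libraries. *Fn1*, fibronectin, was lower at a high level, 1436 to 1596 against 3088 to 5229.5 (-1.51 ± 0.16), as were *Eln* (-2.79 ± 0.10), *Bgn* (-3.18 ± 0.10), *Thbs1* (-3.14 ± 0.12) and *Sparc* (-1.43 ± 0.10). *Efemp1* (2.06 ± 0.19), *Spon1* (1.95 ± 0.13), *Frem2* (1.83 ± 0.38), *Nid2* and *Sparcl1* were the 5 higher.

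Of 36 collagen chains, 20 were lower and 9 higher (20 and 11 without E12.5 SP replicate 1). *Col1a1*, a chain of the main fibrillar collagen, stood at 741, 722, 723 and 675 normalised CPM in iSP and 2283, 3396, 3802 and 3572 in E12.5 SP (-2.16 ± 0.15), and *Col5a2* at 32.5, 35.7, 37.8 and 40.3 against 319, 526, 558 and 578 (-3.69 ± 0.18). The partner chain *Col1a2* was called higher by 0.28 on the log2 scale, a call not kept under several other settings, and *Col3a1* was not called (0.13 ± 0.11). *Col6a1* (-2.80 ± 0.13), *Col6a2* (-3.44 ± 0.11) and *Col6a3* (-1.86 ± 0.29) were lower together, as were *Col4a1* (-0.57) and *Col4a2* (-0.66) of basement membranes. The 9 higher included the cartilage collagens *Col2a1*, *Col9a1* and *Col11a1*.

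Purine salvage and sex chromosome genes held single large differences, with 2 higher and 2 lower of 5 tested in each list. Both lower sex chromosome genes, and *Hprt*, passed the filter through E12.5 SP alone. *Hprt*, of purine salvage on the X chromosome, stood at 0.29, 0.537, 0.702 and 0.574 normalised CPM in iSP and 33.1, 47.4, 35.3 and 40.4 in E12.5 SP (-4.71 ± 0.14). *Xist*, made from the silenced X chromosome, stood at 0.0483 to 0.43 against 141 to 582 (-8.05 ± 0.37), and shares exonic bases with *Tsix*. The Y-linked *Kdm5d* was lower (-3.81 ± 0.17), while *Uty* (0.98 ± 0.24) and *Eif2s3y* (0.60 ± 0.15) were higher. By limma, *Ddx3y* was called lower only without E12.5 SP replicate 1 (-0.75). With all libraries edgeR called 3 of the 5 lower, *Ddx3y* among them. Each E12.5 SP pool held embryos of a whole litter. Of 7 mitochondrially encoded genes tested, 5 were lower with either set of libraries, from -0.48 for *mt-Nd4* to -0.42 for *mt-Nd1* on the log2 scale, while the share of all such reads did not differ beyond its spread (1.08% ± 0.101 against 1.19% ± 0.125, SD, n = 4 each, exact two-sided permutation test, p = 0.229). The replicate block called 4 lower, and several of these genes, such as *mt-Nd4*, have near copies that could share reads.

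The E11.5 SP, sorted in the same way a day earlier, were compared with the E12.5 SP to show the size of change in the fetal stroma over that day. Of 13633 genes tested, 1162 (8.52%) were called, 508 (3.73%) higher at E12.5 and 654 (4.8%) lower, and without E12.5 SP replicate 1 these were 2943 (21.6%, 10.9% higher and 10.7% lower). Leaving out 1 of the other 7 libraries gave from 420 (without E12.5 SP replicate 4) to 1564 (without E11.5 SP replicate 4). Among the calls of lowest p, *Trpm5* (2.97), *Cxcl13* (2.53), *Col6a6* (3.22) and *Vstm2b* (1.76) were higher at E12.5, and *Crmp1* (-1.89), *Col9a1* (-3.12), *Zfp365* (-1.70) and *Efhd2* (-1.398) lower. Both comparisons use the E12.5 SP libraries, so the values are only set side by side. *Col9a1* stood at 71.6, 86.2, 82.0 and 79.3 normalised CPM in iSP, 39.2, 32.6, 39.4 and 23.1 in E12.5 SP and 283, 341, 385 and 199 in E11.5 SP, and *Col6a6* at 3.91, 4.05, 3.77 and 3.04, 49.8, 73.3, 71.2 and 90.1 and 3.47, 6.88, 10.8 and 6.87. iSP thus lay between the 2 ages in *Col9a1* and, in *Col6a6*, below all E12.5 SP libraries but overlapping E11.5 SP.

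Against E11.5 SP, 67.6% of 13916 genes were called in iSP, 35.5% higher and 32.1% lower. *Foxd1* stood at 265 to 563 normalised CPM in E11.5 SP, *Zic1* at 0 to 0.3 and *Tnc* at 50.7 to 128, which put the iSP on the same side of both fetal ages in these genes. Of the lists, heat shock (20 lower and none higher), smooth muscle (12 and none), glycolysis (20 higher and 1 lower) and hypoxia genes (22 and none) kept the side they had against E12.5 SP. Both comparisons use the same iSP libraries, so a shared side is not independent evidence. Ureteric bud genes (1 higher and 4 lower against E11.5 SP), cartilage, bone and tendon genes (3 and 6) and cholesterol synthesis genes (5 and 11) changed side. Limb and head mesenchyme genes gave 5 higher and 4 lower and nephron progenitor genes 6 and 5. Those 2 lists were more even than against E12.5 SP, with median log2 fold changes of 0.55 and 0.42. *Six2* stood at 29.5, 21.1, 14.5 and 16.98 in E11.5 SP, so the iSP, above E12.5 SP, were not above the earlier stroma (-0.54). *Hspa1a* stood at 103.3, 112, 149.6 and 121 in E11.5 SP, so the iSP lay below both ages in it. *Dnajb1* stood at 229, 254, 290.0 and 279, above the iSP, which in turn lay above E12.5 SP replicates 2 to 4. In both genes E11.5 SP lay between E12.5 SP replicate 1 and the other E12.5 SP libraries. In *Trib3*, E11.5 SP lay at 26.4 to 62.2.

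The nephron progenitors of the same study, iNP from the same kind of embryoid bodies and ex-fetu E12.5 NP, allowed a test of whether the difference between iSP and E12.5 SP departed from that between iNP and E12.5 NP. Of 14931 genes tested for this interaction, 3560 (23.8%) were called, 1396 (9.35%) with a stromal difference above the nephron one and 2164 (14.5%) below it. These were 3825 (25.6%, 9.91% above and 15.7% below) without E12.5 SP replicate 1. Same-numbered E12.5 SP and E12.5 NP libraries deviated together, and a fit that took the number, within each source of cells, as a block called 4984 genes, 2228 above and 2756 below. The 12 genes named here kept their calls in it. Between iNP and E12.5 NP alone, 44.3% of genes were called, 25.6% higher and 18.7% lower in iNP. *Rspo1* had the lowest p among the genes whose stromal difference was the greater one: it was higher in iSP than in E12.5 SP (2.88) and lower in iNP, at 16.2, 14.5, 19.4 and 20.2 normalised CPM, than in E12.5 NP, at 126, 128, 146 and 142 (-2.89), a difference of 5.77 ± 0.21 (adjusted p = 4.0e-11). *Ntm*, a neural adhesion protein, was the reverse, with 8.55, 6.84, 7.09 and 7.37 in iSP and 45.7, 67.5, 60.4 and 70.7 in E12.5 SP (-2.86) but 13.6 to 16.8 in iNP and 1.14 to 1.95 in E12.5 NP (2.80), a difference of -5.66 ± 0.21.

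*Irx3* (5.06), *Emx2* (5.06), *Bmp7* (4.62), *C130021I20Rik* (5.99) and *E330013P04Rik* (3.33) also had stromal differences above the nephron ones. *Bmp7* stood at 88.6 to 137 normalised CPM in iNP and 148 to 225 in E12.5 NP, so the iSP were near the nephron progenitors in its level and the E12.5 SP were not. *Lsamp* (-5.29), *Cxcl13* (-5.07), *Naalad2* (-3.73), *Arap1* (-3.41) and *Rfx4* (-3.27) lay below. Over the lists, 34 of 45 matrix genes and 22 of 36 collagen chains had a stromal difference below the nephron one and 3 and 2 above it, 9 of 14 nephron progenitor genes lay above and 2 below, and smooth muscle genes gave 11 of 13 below. Without E12.5 SP replicate 1 these were 37 and 23 below, 2 and 2 above, 9 above and 2 below, and 12 below, and the differences of the 12 named genes moved by at most 0.13.

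**Figure D5:**
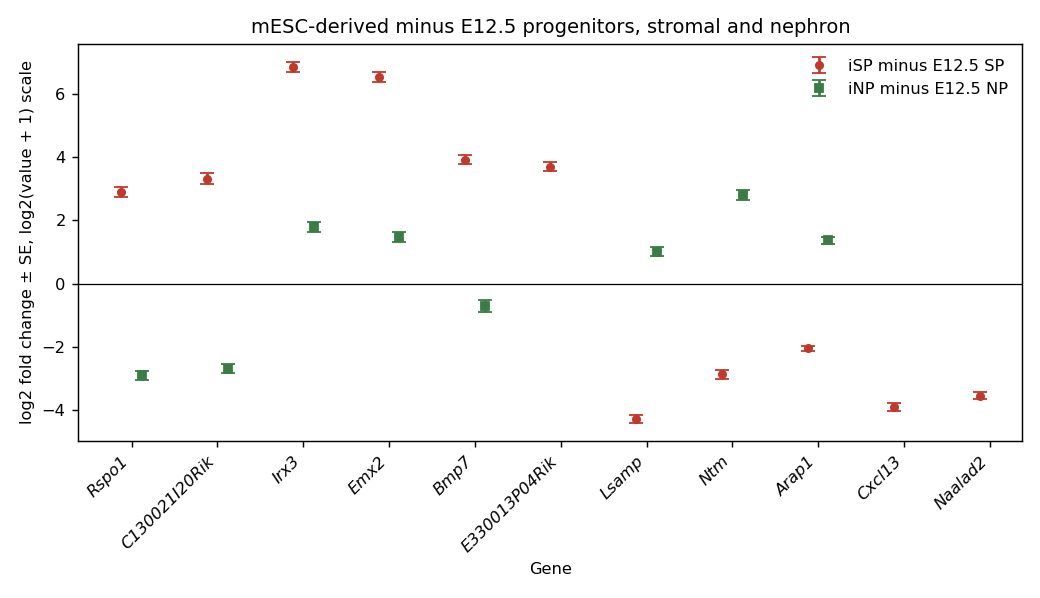
Log2 fold change ± SE of iSP minus E12.5 SP (red circles) and of iNP minus E12.5 NP (green squares), n = 4 libraries a group, for 11 genes of lowest interaction p. The points of a gene lie apart, and in *Rspo1* and *Ntm* on opposite sides of 0; *E330013P04Rik*, *Cxcl13* and *Naalad2* did not pass the filter in the nephron comparison and have a red point only.

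The 10 genes in which E12.5 SP replicate 1 lay farthest from the other 3 libraries were *Hspa1b*, *Hspa1a*, *Egr4*, *Sv2c*, *Trib3*, *Chac1*, *Cxcl10*, *Dnajb1*, *Slc7a11* and *AI506816*. *Cxcl10*, a chemokine induced by interferon, stood at 75.2 normalised CPM in replicate 1, 3.01 to 4.50 in the other 3 and 0 to 0.222 in iSP, and *Sv2c*, a synaptic vesicle protein, at 1.14, 40.1 to 53.1 and 3.73 to 7.23. The E12.5 NP library with the same number stood apart in the same genes, with *Hspa1a* at 194 against 1.103 to 1.18 in the other 3 E12.5 NP libraries, *Dnajb1* at 370.4 against 57.2 to 79.0 and *Trib3* at 4.001 against 74.9 to 113. Handling of the kidneys, which could be used fresh or after cold storage, is not given by sample, and its part was not tested.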

How the data were processed

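The libraries compared were 4 of iSP and 4 of E12.5 SP, with 4 each of E11.5 SP, iNP and E12.5 NP for the side comparisons, grouped by their labels. The authors sorted the cells, made stranded mRNA libraries, sequenced read-pairs, trimmed them with cutadapt and aligned them with STAR. Both the methods and the labels name GRCh38, but the gene identifiers are of mouse, and 99.5% of them are in the GENCODE M21 annotation of GRCm38, from which positions are taken. The counting program and its use of strand are not given in the sources used here. The deposited signal values are CPM that the authors divided by edgeR normalisation factors. All values were whole multiples of 1 read (tolerance 0.01), which gave back the reads. The deposited log2 fold changes, p-values and FDR of the authors' own comparisons were not used.

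Differences in log2(value + 1) were tested by limma 3.58.1 in R 4.3.3 (lmFit, eBayes with trend), Benjamini-Hochberg adjustment over all genes tested and a threshold of 0.05, and those passing are said to be called. Fold changes on this scale understate the change of low genes. An adjusted p printed for a gene is limma's, errors beside log2 fold changes are SE, and unmarked ones in the text have an adjusted p under 0.05. Lower bounds for genes at 0 set the mean of the other group against 3 reads per library of the group at 0. They cover counting error only, and single libraries of the other group can lie below them. Alternatives were edgeR 4.0.16 and DESeq2 1.42.0 on the recovered reads, limma treat, a pseudocount of 0.1, other filters, quantile and upper-quartile scaling, all 36 samples in the fit, the replicate number as a block, and each library left out. The leave-one-out values of the mitochondrial share were chosen after seeing the data. Single values were tested by exact permutation over samples. Scripts were tested on simulated data. Near copies were found with BLAST 2.17.0, and promoters come from RefSeq (GRCm38.p6).

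The genes named are, by rule, the 8 of lowest p in each direction, the members of gene lists farthest apart among those called (at most 6 a list) with defining members not called and members whose call changes without E12.5 SP replicate 1, *Plagl1*, *Maff*, *Atf3* and *Klf5*, the 6 of lowest interaction p and the 4 of lowest p between ages in each direction, and the 10 in which E12.5 SP replicate 1 lay farthest away. Some genes that meet the rule are not reported here. Other list members were named after their values were seen. The comparison, the lists and the rule were chosen with earlier results of these data known. Replicate numbers come from the titles. Same-numbered iSP and E12.5 SP libraries share no material (correlations of their deviations 0.03, -0.48, 0.32 and 0.20), so no pairing was used.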

Additional observations from a re-analysis of the deposited data

Results flagged for a closer look

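In 46 groups of 4 values checked for a single value far from the other 3, 6 were found, all in E12.5 SP. The genes checked were picked with earlier results of these data known and included stress genes that stand together in replicate 1. The count is a description only and is not set against chance. Replicate 1 was far above the others in *Hspa1a* (512 normalised CPM), *Atf3* (360.3) and *Maff* (489). Replicate 3 was the high one in *Alx4* (2.58), replicate 2 in *Emx2* (0.968), and replicate 2 held the most reads (52.5 M). The causes were not tested.

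The difference between iSP and E12.5 SP departed from that between iNP and E12.5 NP in 3560 genes. On the log2 scale, the stromal minus the nephron difference was 5.77 in *Rspo1*, 5.99 in *C130021I20Rik*, 5.06 in *Irx3*, 5.06 in *Emx2*, 4.62 in *Bmp7* and 3.33 in *E330013P04Rik*. It was -5.29 in *Lsamp*, -5.66 in *Ntm*, -3.41 in *Arap1*, -5.07 in *Cxcl13*, -3.27 in *Rfx4* and -3.73 in *Naalad2*.

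Between the fetal ages 1162 genes differed. E12.5 minus E11.5 SP was 2.97 in *Trpm5*, 2.53 in *Cxcl13*, 3.22 in *Col6a6* and 1.76 in *Vstm2b*, and -1.89 in *Crmp1*, -3.12 in *Col9a1*, -1.70 in *Zfp365* and -1.40 in *Efhd2*, on the log2 scale.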

How the results depend on the processing

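Of 350 named genes, 190 kept their direction and their side of the threshold under every alternative run, the stricter limma treat included, and with a pseudocount of 0.1 349 did. Among the 8 libraries left out singly, E12.5 SP replicate 1 changed the calls of the most named genes: without it 33 further ones were called and 4 changed sign, *Nr4a2*, *Dusp1*, *Dnajb1* and *Gli3*. Over all libraries left out in turn these ran from -0.60 to 0.43, from -0.18 to 0.43, from -0.99 to 0.37 and from -0.40 to 0.18. Leaving out each library in turn gave 7753 to 9816 calls between iSP and E12.5 SP, 420 to 2943 between E12.5 and E11.5 SP (527, 564, 521 and 1564 without E11.5 SP replicates 1 to 4, and 665, 475 and 420 without E12.5 SP replicates 2 to 4), 3111 to 4080 for the interaction, and a difference in mitochondrial share from -0.155 to -0.0631 percentage points. Limma treat called 1231 genes, fewer by its own construction. Called under some settings only were *Hspa1a* and *Hsph1* (not without single iSP libraries), *Hspa1b*, *Hsp90ab1*, *Socs3*, *Flt1*, *Tek*, *Col1a2*, *Rgs5*, *Trim28*, *Tet2*, *Stc2*, *Id1*, *Fgfr4*, *Epcam*, *Pecam1*, *mt-Nd1* and *AI506816*, and *Chac1* was not called without single libraries of either group; the cause was not tested. With all 36 samples in the fit *Pdgfrb*, *Sfrp1*, *Crabp1* and *Sparcl1* were not called, and without E12.5 SP replicate 2 *Meg3* was, at -1.47. Upper-quartile scaling moved the median log2 fold change of all genes from 0.04 to 0.15 and the share of calls that were higher from 53.6% to 61.9%, and quantile normalisation moved that share for the interaction from 39.2% to 49.2%. With the replicate number as a block, calls numbered 8272 between iSP and E12.5 SP, 787 between ages and 4984 for the interaction. The numbers pair E12.5 SP with E12.5 NP libraries in the data (correlations 0.69, 0.68, 0.59 and 0.53) but not E12.5 SP with E11.5 SP (0.18, -0.57, -0.03 and 0.005) or iSP with iNP (-0.24, -0.28, 0.29 and 0.21). Of the list counts, Hox genes of groups 1 to 8 called higher fell from 5 to 3 with edgeR and with quantile normalisation. Counts of 1 to 3 reads set the limit for low genes.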
